A study of Mus musculus with 20 samples.

Results

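The features described here are 150 of 42006 array probes whose footpad signal, averaged over both genotypes, was lower at birth and then stayed level. They were chosen by their own values. The footpad dye signal (Cy3) of each probe was taken as log2, less the median of its array, and averaged over the 4 arrays of a stage. The probe had to be well above background on all 4 arrays of the embryonic stage E17.5, to move by less than 1 between postnatal day 1 (P1), P5 and adult, and to differ by less than 0.5 between the genotypes at P5 and adult. Of the 42006 probes, 27536 passed the first condition, 19746 the second as well, 17025 all 3, and 10286 of these were lower at P1 than at E17.5. The 150 with the most negative difference, P1 minus E17.5, are the members, and this difference is called the step. The step is therefore a description of how they were selected on these arrays, and no test of it is given.

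Wild-type (WT) and Tabby mice, all labelled with the C57BL6/J strain, gave microdissected skin of the foot pads at E17.5, P1, P3, P5 and adult (P56). There were 2 biological replicates in each of the 10 groups, and the sources used here do not say how many animals a replicate holds. Tabby mice carry a mutation of Eda, and the series set out to identify potassium and chloride channels of eccrine sweat glands. Every one of the 20 arrays carried footpad RNA in Cy3 and, in Cy5, a reference mixed from RNA of pooled cell lines and embryonic stem cells. Each stage filled a slide of its own with 4 arrays, and the E17.5 slide was scanned on another day than the slides of P1, P3 and P5. The step therefore cannot be told apart from a difference between slides or scan days.

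Foot pads are the hairless skin cushions of the paw, and in mice they hold the eccrine sweat glands, which bud from the epidermis before birth and form their coiled secretory part after it. Ectodysplasin, the product of Eda, is a ligand of the tumour necrosis factor family that epidermal placodes need, and Tabby pads lack these glands. Histones package DNA, and most of their genes are transcribed while a cell copies its DNA. In whole skin, fewer cells of a type and less RNA per cell cannot be told apart.

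The array files give each probe an identifier beginning with Z and a sequence of 60 bases, with no gene name, so tissue markers and gene lists could not be checked by name. Members were compared with each other by sequence, and with windows from 250 bases before to 50 bases after the start of each gene in RefSeq (GRCm38.p6). Of the 42006 probes, 516 matched a window over at least 20 bases on the same strand, and 4 of these are members. Sharing 18 bases or more linked 13 members into 4 sets, and 0 other probes of the array shared so much with them. The larger sets are shown because their E17.5 arrays lay above all later arrays both in Cy3 and as a ratio to the reference. In set 1, capitals mark the 18 bases that its 5 closest probes have in common.

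Z00030368-1: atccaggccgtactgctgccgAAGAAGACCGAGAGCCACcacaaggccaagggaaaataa
Z00033752-1: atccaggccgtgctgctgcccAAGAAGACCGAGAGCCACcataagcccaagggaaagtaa
Z00030367-1: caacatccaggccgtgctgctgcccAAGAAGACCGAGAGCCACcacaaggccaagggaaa
Z00032026-1: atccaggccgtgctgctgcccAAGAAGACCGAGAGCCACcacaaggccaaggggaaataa
Z00059316-1: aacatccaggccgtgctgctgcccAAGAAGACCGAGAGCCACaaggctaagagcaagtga

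The sixth probe of set 1, Z00064634-1, begins with AAGGCCAAGGGGAAATAA, the last 18 bases of Z00032026-1, and runs on beyond it. No window matched set 1, and its gene is not named here. In set 2, capitals mark 18 bases common to its 3 probes.

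Z00030948-1: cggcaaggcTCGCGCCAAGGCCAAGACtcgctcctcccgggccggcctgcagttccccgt
Z00030791-1: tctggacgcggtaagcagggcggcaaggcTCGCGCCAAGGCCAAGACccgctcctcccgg
Z00030366-1: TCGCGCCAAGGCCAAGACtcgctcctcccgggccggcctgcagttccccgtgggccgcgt

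Of set 2, Z00030948-1 matched the start of H2ac24 over 26 bases from position 24 of the gene, within the window on the minus strand of chromosome 13 from 21833426 to 21833725. The second probe, Z00030791-1, matched H2ac24 over 26 bases from position 4 and also H2ac13 over 25 bases from position 14, on the plus strand of chromosome 13 in the window from 21716162 to 21716461. Both genes encode H2A, a core histone. H2A genes are near-identical copies, so which of them gave the signal is uncertain, and probes of a set may read the same RNA and are not independent. Z00030366-1 shared 51 bases with Z00030948-1.

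Across the 20 arrays, 27195 to 30269 probes were well above background in Cy3. All 150 members were so on each E17.5 array, by the rule, and 99 to 123 on each later array. One library stands apart: Tabby E17.5 replicate 2, where Feature Extraction flagged 43 probe spots as outliers, while the other arrays had 1 to 11 such spots. Its log2 ratios were also low: in 104 of the 145 members with a ratio on all 4 E17.5 arrays it lay below the other 3, as it did in 56.6% of all probes, with a median of -0.15 against their mean. On the other E17.5 arrays this was so in 10 to 18 members. Its part in the E17.5 results was not tested, and the main ones are also given without it. Without it, the rule took 142 of the 150.

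The step of the 150 members had a median of -1.72 in Cy3 (quartiles -2.11 and -1.59), against -0.10 over the 32124 probes tested. It was -1.77 in WT, where single members ran from -5.34 to 0.35 and 148 were below 0, and -1.73 in Tabby, where they ran from -7.45 to -0.36. In 146 members all 4 E17.5 arrays lay above all 4 P1 arrays, against 33.4% of the probes tested. The rule used this contrast, so nothing is read from that count. The members nearest the limit of 150 were Z00060861-1, Z00039628-1 and Z00029584-1, each with a step of -1.51, and just outside it lay Z00056701-1, Z00027410-1 and Z00013037-1, each with a step of -1.49.

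Choosing on a single genotype gave lists whose step was also seen in the genotype that was not used. The 150 probes chosen on WT alone had a median step of -1.90 in Tabby, where 148 were below 0 and the median of all probes was -0.03. Those chosen on Tabby alone had a median of -1.98 in WT, with 147 below 0 and -0.07 over all probes. The lists had 50 probes in common. The WT and Tabby arrays of a stage shared a slide, so this shows the step in other samples but not on another slide.

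**Figure D1:**
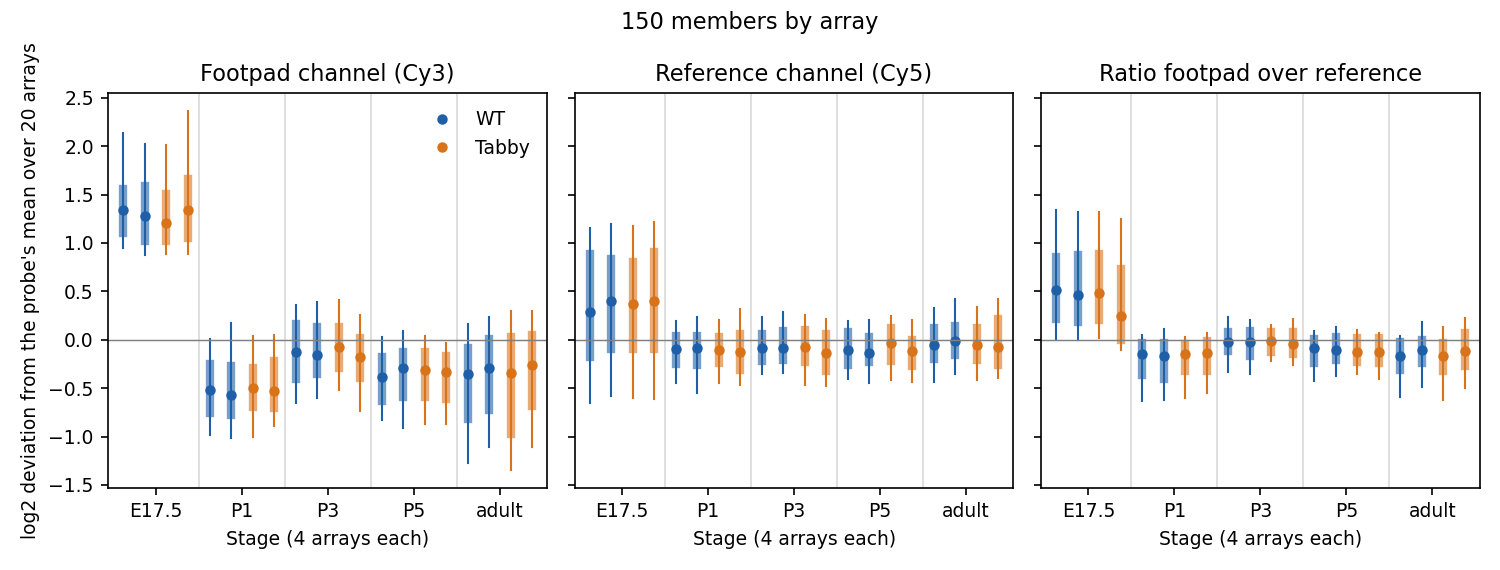
Log2 values of the 150 members on each of the 20 arrays, as the deviation of each probe from its own mean, for the footpad channel (Cy3), the reference channel (Cy5) and their ratio. Points are medians, thick bars the quartiles and thin bars the 10th to 90th percentile over members. The E17.5 arrays are high in all 3 panels, including the reference channel, whose RNA is the same on every array by its label only.

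The most negative steps belonged to probes that were dim after birth. Of the 12 members with the most negative step, 9 were well above background on 0 of 4 P1 arrays, and the remaining 3 were high on a single E17.5 array, described below. Among all members, 99 were well above background on 4 of 4 P1 arrays, 19 on 1 to 3 and 32 on 0. On all 16 later arrays together, 93 members were well above background throughout and 18 on 0 arrays. For the 32, a step is a lower bound, taken as the E17.5 mean over a floor on each P1 array (the dimmest Cy3 signal there that passed as well above background, or the probe's own signal where higher), after both channels were brought to a common scale. It carries dye bias, since no dyes were swapped. An offset of 50 had also been added to both signals, which makes the bounds of dim probes smaller. The bound ranged from at least 1.07-fold to at least 2.89-fold in WT, with 1 of 32 members past 1.5-fold, and from at least 1.02-fold to at least 5.62-fold in Tabby, with 3 past it.

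Z00076581-1 had the most negative step of all, -5.23. Its Cy3 values at E17.5 were 0.84 and 0.52 in WT and 2.02 and 0.99 in Tabby, and at P1 -4.93 and -4.39 in WT and -3.58 and -3.62 in Tabby. All 4 E17.5 arrays lay above every later array, and 0 of the 16 later arrays were well above background. The bound was at least 2.89-fold in WT and at least 5.62-fold in Tabby. Its reference signal was also lower on the P1 slide, by 1.35 ± 0.04 (SE; adjusted p = 9.12e-15, limma). This probe is shown because it leads the list.

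Z00076581-1: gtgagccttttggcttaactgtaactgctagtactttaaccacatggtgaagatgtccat

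Next among the dim members, Z00061834-1 had Cy3 values at E17.5 of -0.94 and -0.84 in WT and -0.63 and -0.74 in Tabby, against -4.87, -4.22, -4.47 and -4.42 at P1. Its bound was at least 1.40-fold in WT and at least 1.23-fold in Tabby. The other 7 of the dim leading members, Z00073015-1, Z00026491-1, Z00051539-1, Z00028780-1, Z00055318-1, Z00046328-1 and Z00076828-1, had steps from -3.19 to -2.87. Their bounds lay between 1.07-fold and 1.41-fold. All 7 were well above background on 0 of 16 later arrays. For Z00073015-1, 2 probes outside the members read part of the same sequence: Z00073698-1 shared 45 bases and had a step of -2.27, and Z00031179-1 shared 37 bases and had a step of -2.83. In these 2, capitals mark the bases shared with Z00073015-1.

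Z00073015-1: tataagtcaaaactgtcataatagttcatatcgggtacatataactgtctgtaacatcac
Z00073698-1: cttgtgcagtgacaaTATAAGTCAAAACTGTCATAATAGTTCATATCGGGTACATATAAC
Z00031179-1: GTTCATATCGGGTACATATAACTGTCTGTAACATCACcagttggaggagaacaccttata

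Overlapping probes give a second reading of a member from another spot of the same arrays. In all, 5 members shared at least 30 bases with 6 probes that are not members. Besides those of Z00073015-1, the partner of Z00074016-1 had a step of -1.57 as the member did, that of Z00056844-1 -1.42 against -1.53, and that of Z00055290-1 -1.44 against -1.63. Z00038318-1 had a step of -1.59 against -0.10 for its partner over 42 shared bases. Its reference signal also differed from the partner's, with a change of -1.16 against -0.10, and the log2 ratio steps of both were -0.12.

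For 5 members the E17.5 value came from 1 array, Tabby E17.5 replicate 2. Z00066800-1 had Cy3 values of -1.38, -1.36 and -1.48 on the other E17.5 arrays and 12.70 on that array, with -1.86 to -1.37 at P1. Z00030522-1 read 0.74, 0.82 and 0.66 on the other arrays and 13.64 there, and Z00051361-1 read 0.08, 0.49 and 0.57 and then 5.91. Z00077534-1 had -0.33, -0.14 and -0.30 beside 5.33, and Z00034284-1 had -1.92, -1.44 and -1.53 beside 5.60. In every other member that array lay at most 0.64 above the mean of the other 3. Without it the steps of the 5 were -0.28, 0.27, -1.56, -0.20 and 0.22 in the same order, so Z00051361-1 alone kept a step below -1. Feature Extraction flagged the spot for 4 of them, all but Z00034284-1, and the log2 ratios of these 4 leave that array out. The reference channel was high on the same spots, by 2.51 to 9.11 over the mean of the other 3 arrays. Another member, Z00051192-1, had a flagged spot on a WT E17.5 array. Its Cy3 step, which keeps that spot, was -3.04 in WT but -0.36 in Tabby. As log2 ratio, which leaves the spot out, the steps were -0.78 and -0.73. Its reference change was 0.29 with the spot and 0.77 without it.

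**Figure D2:**
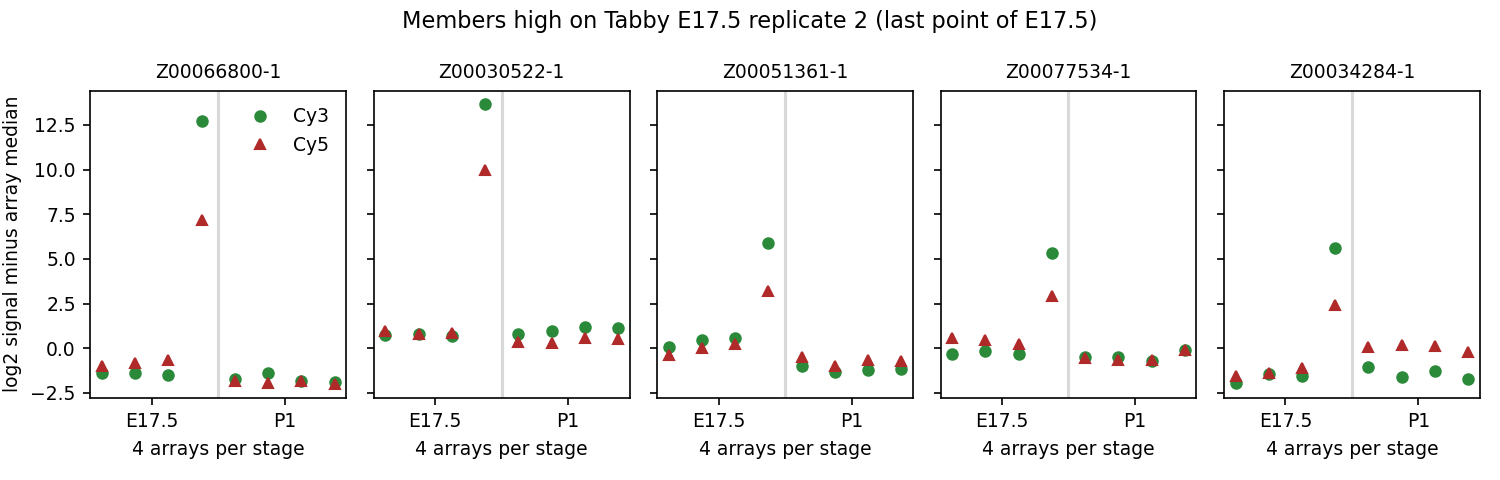
Log2 signal less the array median in Cy3 and Cy5 on the 4 E17.5 and 4 P1 arrays for 5 members, in the order WT 1, WT 2, Tabby 1, Tabby 2. On the last E17.5 array Cy3 stood between 5.33 and 13.64 and Cy5 between 2.41 and 9.99, far above the other 3 E17.5 arrays.

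The reference channel did not enter the rule, and its RNA is labelled as the same on all arrays, so it was tested. Each stage had a single slide, so the p-values and SE of this test measure the spread between arrays of a slide, not between slides. Of the 150 members, 118 differed between the P1 and the E17.5 slide in Cy5 (adjusted p under 0.05, limma), against 78.4% of the 32124 probes tested. Lower on the P1 slide were 91 members, where the share over all probes was 48.4%, and higher were 27, where it was 30%. The median change was -0.49 in the members and -0.22 over all probes. Between later slides the reference barely moved. The median size of the change in the members was 0.73 from E17.5 to P1 but 0.05 from P1 to P3, 0.06 from P3 to P5 and 0.11 from P5 to adult. Changes of more than 1 were found in 55 members in the first interval and in 0, 0 and 4 in the later ones. The shares over all probes tested were 25.1%, 1.12%, 1.04% and 3.31%. These sizes and counts keep flagged spots, which the test left out. In 72 members the reference was higher on all 4 E17.5 arrays than on all 16 later ones, against 37.7% of all probes.

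Single members show how far this went. Z00036497-1 read 3.46 to 3.51 in Cy5 on the E17.5 slide and 7.74, 7.76, 7.78 and 7.68 on the P1 slide, a change of 4.25 ± 0.04 (SE; adjusted p = 1.51e-22, limma). It stayed between 7.64 and 7.86 on the other 12 arrays. In Cy3 it read 6.22, 6.33, 6.20 and 6.51 at E17.5 and 5.19, 4.61, 4.60 and 4.80 at P1, a step of -1.51. Z00076254-1 had the largest Cy5 change upward, 4.51 ± 0.14 (SE; adjusted p = 4.78e-15, limma), and Z00076828-1 changed by 2.50 ± 0.23 (SE; adjusted p = 2.30e-08). Among members called lower, the largest changes were -2.35 ± 0.35 in Z00055318-1, -2.31 ± 0.14 in Z00072940-1 and -2.19 ± 0.25 in Z00066075-1, with adjusted p of 1.03e-05, 5.84e-11 and 4.02e-07 in limma. These 3 were well above background in Cy3 on 0 of 16 later arrays.

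**Figure D3:**
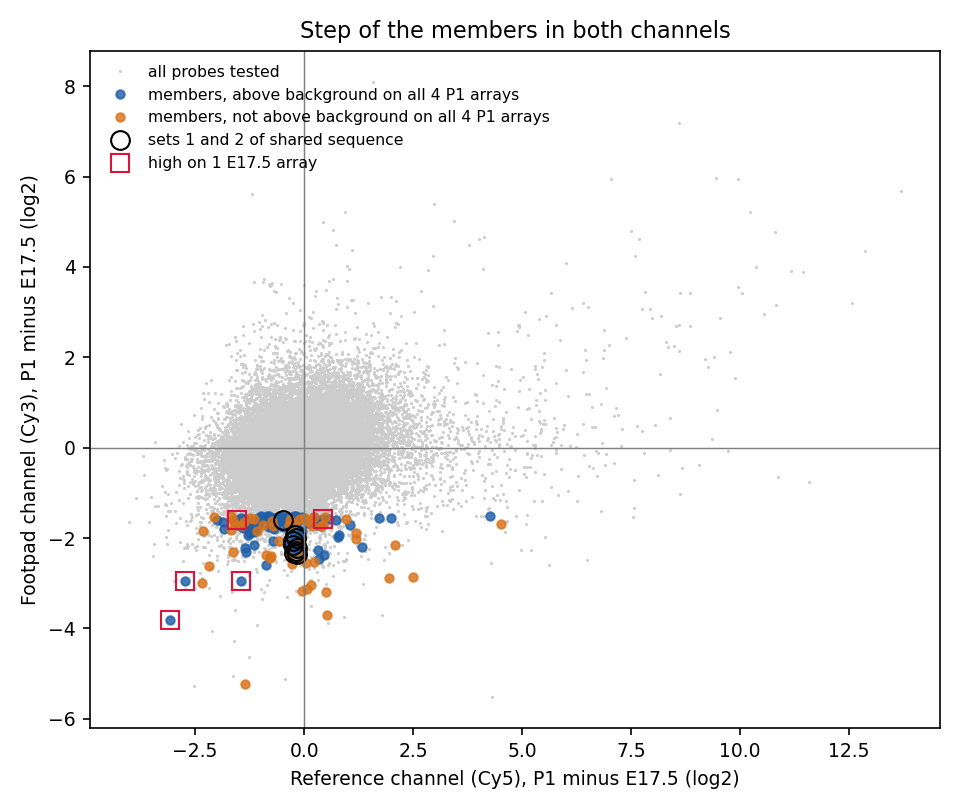
Step in the footpad channel (Cy3, vertical) against the change of the reference channel (Cy5, horizontal), P1 minus E17.5 in log2. Grey points are the 32124 probes tested. The 150 members are blue where well above background on all 4 P1 arrays and orange where not. Red squares mark the 5 members high on Tabby E17.5 replicate 2. Members lie below -1.5 in Cy3 by the rule and spread from -3.07 to 4.51 in Cy5, while sets 1 and 2 (black rings) lie between -0.48 and -0.16 in Cy5. Flagged spots are kept here, and the -3.07 is that of Z00066800-1, which had -1.06 in the test that left its flagged spot out.

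As log2 ratio of footpad over reference, the members' step was smaller, with a median of -0.59, against 0.05 over all probes. It was below 0 in 139 members and below -1 in 37, where 5.81% of the probes tested were below -1. Without Tabby E17.5 replicate 2 the median was -0.66, with 138 below 0 and 42 below -1. By the processed signals of the scanner software the median ratio step was -1.31, with 88 members below -1. The log2 ratio has an offset of 50 in both signals, which weighs most on dim probes, and the processed ratio has none. How much of the smaller step goes with the reference and how much with the offset was not tested. In 72 members the ratio of all 4 E17.5 arrays lay above all 16 later arrays, a share of 14.9% over all probes. Without Tabby E17.5 replicate 2, the remaining 3 arrays did so in 98. The ratio contains the Cy3 signal on which the members were chosen, so nothing is read from these ratio counts either. The rule applied to the ratio in place of Cy3 kept 4 of the 150, to the processed ratio 12, and to Cy3 with no background subtraction 71. In the 44 members whose reference was lower by more than 1, the median ratio step was -0.16 and 0 had a ratio step below -1. These classes keep flagged spots, which the test of the reference left out. The 44 include Z00030522-1, Z00051361-1 and Z00077534-1, whose tested reference changes were -0.45, -0.65 and -0.91. In the 58 whose reference stayed within 0.5 it was -0.91, and 26 were below -1. Across the 150 members, which share arrays, the reference change and the ratio step had r = -0.59, in part by construction, since the ratio contains the reference. The Cy3 step, which the rule held to a narrow range, and the reference change had r = 0.04 in the members and 0.27 over the 32124 probes. Flagged spots are kept in both, and without Tabby E17.5 replicate 2 the members had r = -0.03.

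Members that were measured on both sides of birth, had a reference within 0.5 and a ratio step below -1 numbered 25 of 99, against 260 of 26094 over all probes. Members were chosen for a low Cy3 step, so with a steady reference a low ratio step partly follows from the rule. Nothing is read from this excess. This group was formed after the values were seen. It includes Z00034284-1, whose Cy3 step rests on 1 array, and without Tabby E17.5 replicate 2 the same limits gave 26. It held 8 of the 9 probes of sets 1 and 2, leaving out Z00064634-1, whose ratio step was -0.93. Of the 25, 9 (36.0%) had a GC content of 60% or more, against 3 of the other 125 members and 5.41% of all probes tested. Outside the sets, whose probes share sequence and are not independent, it was 5 of 17. Over all probes measured on both sides, the 1419 with such a GC content had a median ratio step of 0.13, and all 26094 had 0.09.

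In set 1, Z00032026-1 had Cy3 values of 10.90 and 11.05 in WT and 11.01 and 11.03 in Tabby at E17.5, and of 8.74 and 8.75 in WT and 8.68 and 8.93 in Tabby at P1. The groups did not overlap, and the genotypes lay together at both stages. Its log2 ratio was 0.40 ± 0.05 in WT and 0.38 ± 0.06 in Tabby at E17.5, and -1.61 ± 0.07 and -1.55 ± 0.05 at P1 (SD, n = 2). The reference changed by -0.16 ± 0.06 (SE; adjusted p = 0.0126, limma). The 5 closest probes of the set had Cy3 steps from -2.36 to -2.01 and ratio steps from -2.07 to -1.74, with reference changes from -0.23 to -0.16. Z00064634-1, which shares only its first bases with the set, had a Cy3 step of -1.59.

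Set 2 holds the probes at the start of H2A genes. For Z00030948-1 the Cy3 values at E17.5 were 8.03 and 7.88 in WT and 8.04 and 7.94 in Tabby, and at P1 5.82 and 5.72 in WT and 5.79 and 5.92 in Tabby. Its log2 ratio was 0.06 ± 0.07 in WT and 0.00 ± 0.13 in Tabby at E17.5 and -1.75 ± 0.03 and -1.75 ± 0.09 at P1 (SD, n = 2). The 3 probes had Cy3 steps from -2.16 to -1.94, ratio steps from -1.78 to -1.60 and reference changes from -0.26 to -0.21. In all 9 probes of both sets the E17.5 ratios lay above those of all 16 later arrays, against 14.9% of all probes. The sets are shown for this property and their probes share sequence, so nothing is read from that count. At P3 the ratios of set 2 were between -1.29 and -0.79, between those of P1 (-1.81 to -1.34) and of E17.5 (-0.13 to 0.30). As adults they were between -1.84 and -0.99.

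Of 12 probes that matched the start window of a histone gene, 2 are members, both in set 2, and 8 of the others were well above background on all E17.5 arrays. Probes that lie further into a histone gene could not be found this way. These counts therefore do not cover all histone probes or all histone members. H2ac18, another H2A gene, was read by Z00064576-1, with a Cy3 step of 1.39 and a ratio step of 0.40. H2bc6, which encodes histone H2B, was matched by 3 probes, 2 of which also matched H2bc7, with Cy3 steps from 0.20 to 0.27 and ratio steps from 0.53 to 1.16. H2bc11 was matched over 48 bases by Z00064795-1, with 0.24 and 0.70, and other H2B windows over 22. H4c3, a gene of histone H4, was read by Z00032980-1, with a Cy3 step of -2.23 but a ratio step of -0.14. It then differed by 1.95 between P5 and adult, so the rule passed it over. H4c8, by Z00038251-1, had 0.08 and 0.38, and H3f3a, by Z00032510-1, had 0.37 and -0.61. These probes were picked after their values were seen, and the reference of 6 of the 8 was lower on the P1 slide, by 0.42 to 1.13.

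**Figure D4:**
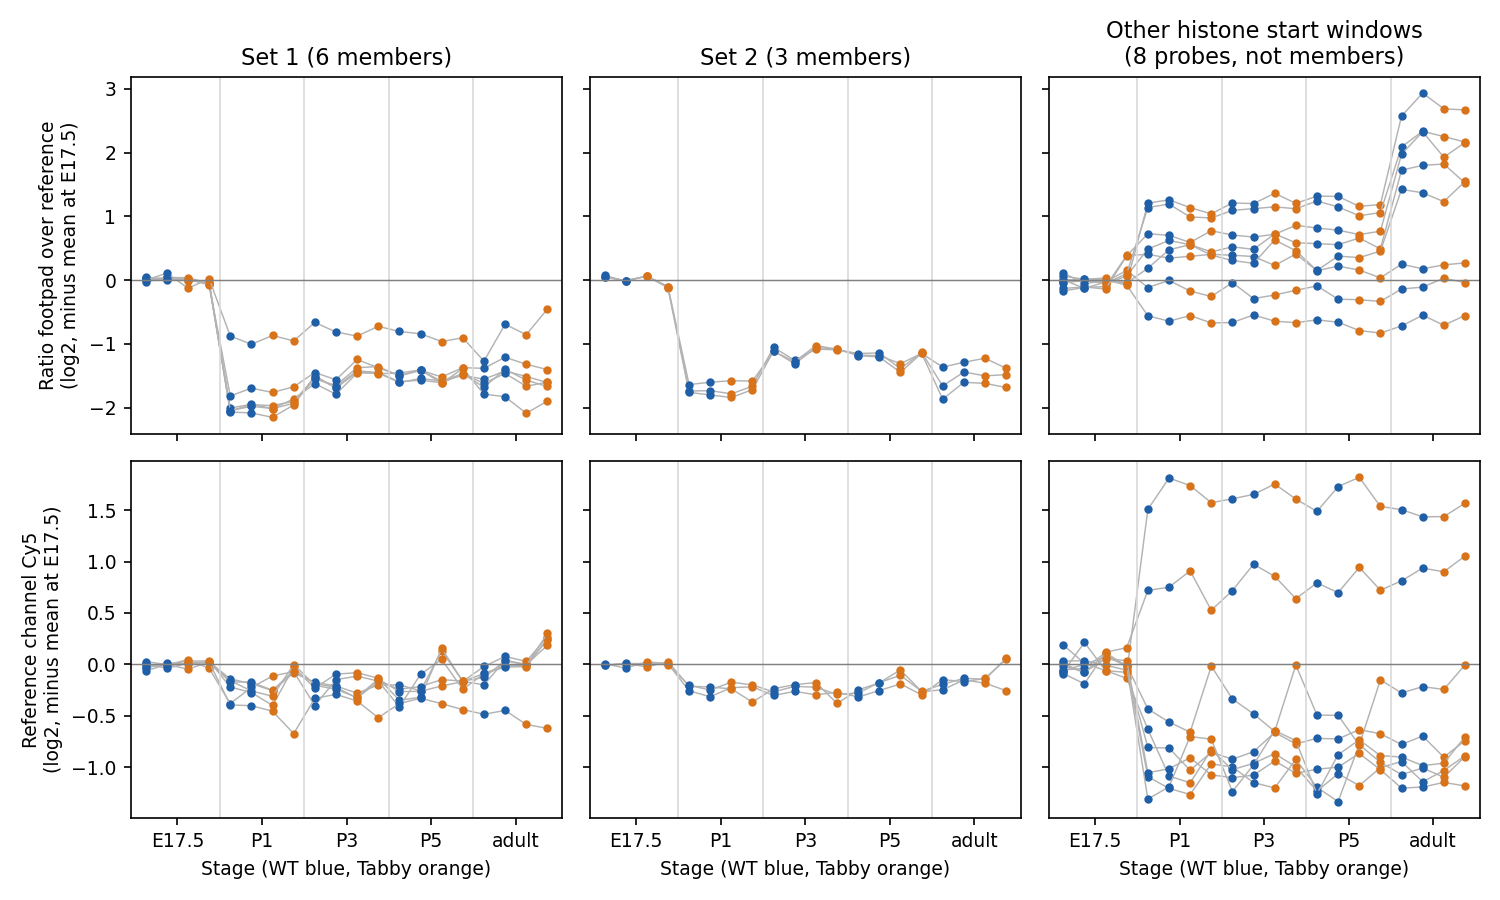
Log2 ratio of footpad over reference (top) and reference signal (bottom) on the 20 arrays, each probe less its own mean at E17.5, for set 1, set 2 and 8 probes outside the members that matched histone start windows. Sets 1 and 2 are lower on all later arrays in the ratio, with reference changes at P1 from -0.48 to -0.16, while 6 of the other 8 probes are higher in the ratio at P1 and all 8 change in the reference. Blue points are WT and orange points Tabby.

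5 more of the 25 members, outside the sets, had a GC content of 60% or more, and their sequences are given because their steps were as large. Z00026369-1 had the largest ratio step of the 25, from 0.85 ± 0.17 to -1.99 ± 0.20 in WT and from 0.72 ± 0.06 to -1.91 ± 0.07 in Tabby (SD, n = 2), with a reference change of 0.35 ± 0.06 (SE; adjusted p = 2.32e-05, limma). Z00074055-1 followed with a ratio step of -2.41. Those of Z00030371-1, Z00033985-1 and Z00077411-1 were -1.84, -1.80 and -1.67. None of the 5 matched a start window over 20 bases.

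Z00026369-1: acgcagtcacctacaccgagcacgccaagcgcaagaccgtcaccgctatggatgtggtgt
Z00074055-1: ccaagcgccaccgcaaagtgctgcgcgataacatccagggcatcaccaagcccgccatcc
Z00030371-1: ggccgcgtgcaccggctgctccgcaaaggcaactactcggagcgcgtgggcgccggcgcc
Z00033985-1: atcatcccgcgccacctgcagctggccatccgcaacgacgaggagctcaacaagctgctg
Z00077411-1: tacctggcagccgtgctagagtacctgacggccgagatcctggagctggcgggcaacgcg

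Sets 3 and 4 hold 2 members each, and their reference moved with them. Z00030162-1 and Z00075775-1 of set 3 share 56 bases. Both had Cy3 steps of -1.92 and -1.89, ratio steps of -0.61 and reference changes of -1.28 and -1.25. In the ratio 0 of the 2 had E17.5 arrays above all later arrays, against 14.9% of all probes. Z00075884-1 and Z00021939-1 of set 4 share 29 bases and had Cy3 steps of -1.72 and -1.70, ratio steps of -0.94 and -0.97 and reference changes of -0.74 and -0.64.

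Outside set 2, 2 members matched the window of a named gene. Z00030447-1 matched Sec61b over 41 bases from position 10 of the gene (chromosome 4, plus strand, window 47474411 to 47474710). Sec61b encodes a subunit of the channel through which new proteins enter the endoplasmic reticulum. Its Cy3 values at E17.5 were 5.41 and 5.31 in WT and 5.53 and 5.52 in Tabby, against 3.51, 3.77, 4.01 and 3.79 at P1. The ratio was 0.95 ± 0.10 in WT and 0.92 ± 0.10 in Tabby at E17.5, and -1.14 ± 0.10 and -0.88 ± 0.04 at P1 (SD, n = 2). The reference of this probe was higher on the P1 slide, by 0.37 ± 0.07 (SE; adjusted p = 1.31e-04, limma).

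The other, Z00065020-1, matched 55 bases at the upstream end of the Atp1b3 window (chromosome 9, minus strand, 96364382 to 96364681), from 250 bases before the annotated start. Atp1b3 encodes a beta subunit of the sodium pump, but the match lies before the start of the gene as annotated. Its Cy3 values at E17.5 were 4.61 and 4.47 in WT and 5.22 and 5.11 in Tabby, with both Tabby arrays above both WT arrays, and lay between 2.63 and 2.77 at P1. As log2 ratio the genotypes differed at E17.5 by 0.42 ± 0.11 (SE), which did not pass (adjusted p = 0.433, limma). Its ratio step was -0.93. Its reference was lower on the P1 slide by 1.15 ± 0.06 (SE; adjusted p = 7.04e-12, limma). Capitals mark the bases that match the window.

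Z00065020-1: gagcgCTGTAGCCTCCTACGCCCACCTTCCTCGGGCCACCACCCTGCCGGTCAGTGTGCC

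The P3 arrays did not enter the rule, though the E17.5 and P1 values they are set against did. In Cy3, 150 of 150 members were lower at P3 than at E17.5, with a median difference of -1.43 against -0.09 over all probes. In 142 members all 4 E17.5 arrays lay above all 4 P3 arrays, against 32.8% of all probes, and in 139 they lay above all 16 later arrays, against 15.3%. The E17.5 arrays entered the rule, as did the P1, P5 and adult arrays among the 16, so nothing is read from these counts. The members were higher at P3 than at P1, by a median of 0.35 (0.02 over all probes), with 33 of 150 lower. Members were chosen in part for low P1 values, so this rise may follow in part from the rule. They were also higher at P3 than at P5, by 0.20. As log2 ratio these medians were -0.50, 0.12 and 0.084.

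Genotype differences at E17.5, P1 and P3 were not used by the rule and were tested on the log2 ratio over all 32124 probes. 0 of 150 members passed in each (adjusted p under 0.05, limma), and over all probes 0.0125% passed at E17.5, 0.0342% at P1 and 0.237% at P3. At an unadjusted p under 0.05, 31, 3 and 11 members differed (20.7%, 2.0% and 7.33% of the members), against 11.5%, 4.27% and 9.40% of all probes. The 31 became 5 without Tabby E17.5 replicate 2, 9 without WT E17.5 replicate 1 and 64 without Tabby E17.5 replicate 1. The step itself differed between Tabby and WT in 0 of 150 members and in 0% of all probes, with 16 members (10.7%) and 5.31% of all probes at an unadjusted p under 0.05. The 16 became 3 without Tabby E17.5 replicate 2, 6 without WT E17.5 replicate 1, and 58 without Tabby E17.5 replicate 1. Without 1 P1 array it was 9 to 22, with 9 for either WT replicate 1 or Tabby replicate 2 and 10 for Tabby replicate 1. The median difference of the members, Tabby less WT, was -0.08 at E17.5 (-0.04 over all probes), 0.02 at P1, 0.00 at P3 and 0.10 for the step (0.03 over all probes). The 95% interval lay within a 2-fold difference in either direction for 140 members at E17.5, 144 at P1, 147 at P3 and 131 for the step. For the remaining members the interval reached past 2-fold.

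The adjusted counts also moved with 1 array. Without Tabby E17.5 replicate 1, so that replicate 2 alone stood for the group and was taken to vary like the others, 54 of 146 members (the 4 with a flagged spot had no array left) were called at E17.5, 42 lower and 12 higher in Tabby, and 41 for the step. Without replicate 2 the counts were 0 and 0. The largest differences at E17.5 were 1.29 ± 0.53 in Z00034284-1, which is high on replicate 2 alone, 1.103 ± 0.187 in Z00076581-1 and -0.93 ± 0.29 in Z00023881-1 (SE; adjusted p of 0.433, 0.203 and 0.433, limma). At P3 the largest was 0.60 ± 0.16 in Z00075611-1 (SE; adjusted p = 0.204, limma).

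**Figure D5:**
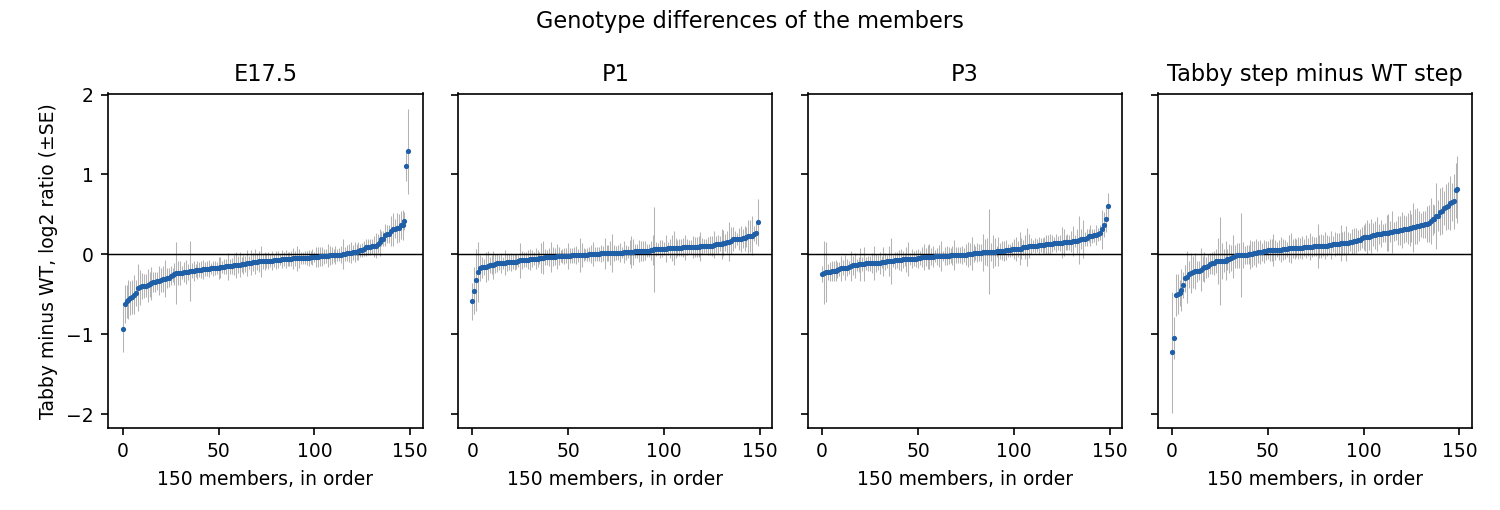
Tabby minus WT in log2 ratio for the 150 members at E17.5, P1 and P3 and for the step, each panel in ascending order with the SE as bars. Most members lie within 0.5 of 0, and the 2 highest points at E17.5 are Z00076581-1 and Z00034284-1.

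The members' base composition was close to that of the array. Their GC content had a median of 45% with quartiles of 40% and 51.7%, and the probes tested had 45% with 38.3% and 50%. AATAAA, searched on the probe strand, was in 14 members (9.33%) and 7.45% of the probes tested, ATTTA in 7 (4.67%) and 7.01%, and TTTTTT in 6 (4%) and 1.87%. These shares are descriptions. On the array the members' rows had a median of 251 and those of all probes 267.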

How the data were processed

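Footpad RNA (Cy3) and a reference (Cy5) were measured on 20 2-colour arrays. Per the file headers, Feature Extraction 9.5.1.1 (Agilent) quantified the spots, and the deposited array files give each channel as an intensity (mean, background and processed signals) and a log10 ratio. The deposited value table, log10, holds 25030 probes, 78 of them members. Within a probe it followed the log10 footpad over reference ratio of the array files plus a constant (SD under 0.001 for 64.4% of probes, more for the others), which settles its scale and direction. What the constant per probe is stays unknown. Its column medians ran from 2.53 to 2.59. It served as an alternative.

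Samples were grouped by the labels. The rule used log2 processed Cy3 less the array median over probe spots. For tests, mean signals were corrected by normexp (offset 50) and loess within arrays in limma 3.58.1 (R 4.3.3, with data.table at version 1.17.8). Control spots and marked outliers were left out. Probes well above background in Cy3 on at least 2 arrays were tested (32124), with 1 coefficient per genotype and stage, 10 residual and 3.52 prior degrees of freedom and Benjamini-Hochberg adjustment over all of them. Cy5 was fitted alone, 1 coefficient per slide. The fits were tested on simulated data. The number of arrays limits precision, and p-values measure only the spread between these samples, or for Cy5 between the arrays of a slide. They do not measure the spread between slides.

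The members and lists were chosen with earlier results of these data known. Named were the 12 most negative steps, the 3 members on each side of the limit, up to 3 called members per direction and test, and members sharing sequence. The values without Tabby E17.5 replicate 2 were an alternative added after seeing the data. Probes named beyond this were chosen after their values were seen. The fixed gene lists hold 275 genes, of which start windows matched 5 by any probe and 0 by a member, so they were not applied. Replicate numbers did not pair the samples: the deviations of same-numbered arrays had correlations from -0.07 to 0.22 at the 5 stages.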

Additional observations from a re-analysis of the deposited data

Results flagged for a closer look

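In the reference channel, 1 of the 4 arrays of the E17.5 slide, Tabby E17.5 replicate 2, stood apart from the other 3 in 4 members. Its gap to the nearest array, as a share of the range of the 4, was 0.963 for Z00066800-1, 0.984 for Z00030522-1, 0.881 for Z00077534-1 and 0.885 for Z00034284-1, above Dixon's critical value at the 95% level. Chance passes this value in about 1 of 20 groups, and the 5 members tested had been picked for their Cy3 values on that array.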

How the results depend on the processing

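Counts of members called for genotype were 0 at P1 under every alternative run. At E17.5 the count was 1 with no background subtraction and with processed signals, and 0 to 54 when an array was left out. At P3 it was 1 with no background subtraction, with processed signals and with the stage fitted alone, 2 with the deposited value table, 10 with array weights, and 0 when an array was left out. For the step by genotype it was 0 to 41 when an array was left out. The fit with a replicate block called 0 members in all 4 tests, as the fit without it did. Reference calls stayed between 111 and 118 when an array was left out and within 1.5 times of 118 in the other settings. The median step in WT and Tabby was -0.66 and -0.48 as log2 ratio, -1.30 and -1.35 from processed signals, -1.23 and -1.29 in the deposited value table and -1.02 and -1.003 with no background subtraction. With an array left out it was -1.82 to -1.72 in WT and -1.78 to -1.70 in Tabby. As log2 ratio, P3 differed from E17.5, P1 and P5 by -0.50, 0.12 and 0.084. With a P3 array left out the Cy3 values were -1.47 to -1.42, 0.30 to 0.39 and 0.18 to 0.23. The rule took 4 of the 150 on the log2 ratio, 12 on the processed ratio, 71 with no background subtraction, 61 on WT alone, 61 on Tabby alone and 130 to 144 with an array left out. The cause of these differences was not tested.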

Other observations

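Z00041099-1, a member well above background on all 16 later arrays, was chosen here after its values were seen. Its reference signal was lower on the P1 slide by 2.01 ± 0.04 (SE; adjusted p = 3.14e-18, limma), and its Cy3 step of -1.59 stood beside a log2 ratio step of 0.40.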
